A study of Mus musculus with 25 samples.

Results

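The genes described here mark and shape Kupffer cells, the resident macrophages of the liver: Clec4f, Timd4, Cd5l, Marco, Id3, Nr1h3, Spic, Cd163 and Slc40a1. They were taken by symbol from a deposited table of 24984 genes, so the set is 9 of 24984 genes.

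RNA was sequenced from 16 libraries of cells sorted out of tumours and from 9 cultures. The tumours arose in athymic nude mice (Crl:NU(NCr)-Foxn1nu), which lack T cells but keep macrophages and NK cells. BMEL cells, a clonal line of bipotential liver progenitors from a C57BL/6 x C3H embryo, carried H-Ras G12V with a fluorescent reporter from a viral vector and were injected into the liver. Tumours grew there and in the peritoneal cavity, and the study takes the latter to stem from cells that probably leaked out at injection rather than from metastasis. The liver tumour and the peritoneal tumour of each of 4 mice were separated into reporter-positive tumour cells and reporter-negative stromal cells, which gave 4 groups of 4 libraries with all 4 libraries of a mouse matched. The cultures were 3 each of BMEL WT (empty vector), RasLOW and RasHIGH cells, the latter both being H-Ras G12V populations sorted for weak and strong reporter signal. The labels do not say which Ras population was injected into these mice. The study describes the sequenced tumour cells as positive for the reporter Venus. For its paired liver and peritoneal tumours it names RasHIGH cells with Venus and RasLOW cells with mCherry, but RasLOW cells with Venus were also made. The sources give no age for the hosts.

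Kupffer cells line the sinusoids of the liver, take up bacteria and dying cells from portal blood, and break down aged red cells and return their iron. Their identity is kept up by signals from sinusoidal endothelium, stellate cells and hepatocytes, among them Notch ligands, Bmp proteins and ligands of the nuclear receptor LXRα. When Kupffer cells are lost, monocytes can enter the emptied niche and switch on most of the same genes, with Timd4 acquired late.

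Each value is given in CPM, the count scaled to the total of its library. Total counts lay between 23129017 and 51241336 in the sorted libraries and between 20818989 and 28205198 in the cultures. At this depth 3 counts correspond to 0.0585 to 0.130 CPM in a sorted library, which covers counting error only. Log2 fold changes between the sites are liver over peritoneal. A gene was called when its adjusted p was under 0.05 and its log2 fold change exceeded 1 in either direction. In bulk libraries, fewer cells of a type and less RNA per cell cannot be told apart.

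The promoters of 3 members are shown because they span the range of site patterns described below: Clec4f and Cd5l had the largest liver excess in stroma, and Cd163 was the member that was lower in liver stroma. Each run is a RefSeq window on GRCm38.p6, from 250 bases before to 50 bases after the start of the gene and read in the direction of the gene. Capitals mark matches on either strand to a PU.1 core (GAGGAAG), a nuclear receptor half-site (AGGTCA) or a Maf half-site (TGCTGA), and no match overlapped another.
Clec4f, chr6:83656067-83656366, minus strand: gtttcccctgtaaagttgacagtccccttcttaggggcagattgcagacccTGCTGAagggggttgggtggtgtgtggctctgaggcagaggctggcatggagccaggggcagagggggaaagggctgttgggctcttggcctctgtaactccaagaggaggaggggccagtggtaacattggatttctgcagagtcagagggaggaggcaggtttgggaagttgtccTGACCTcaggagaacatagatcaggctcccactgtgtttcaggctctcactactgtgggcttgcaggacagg
Cd5l, chr3:87357631-87357930, plus strand: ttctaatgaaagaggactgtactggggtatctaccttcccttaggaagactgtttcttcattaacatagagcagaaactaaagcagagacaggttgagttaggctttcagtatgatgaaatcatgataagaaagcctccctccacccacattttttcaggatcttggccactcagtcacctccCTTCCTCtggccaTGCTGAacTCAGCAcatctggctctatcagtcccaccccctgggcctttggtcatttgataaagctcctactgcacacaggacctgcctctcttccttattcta
Cd163, chr6:124304401-124304700, plus strand: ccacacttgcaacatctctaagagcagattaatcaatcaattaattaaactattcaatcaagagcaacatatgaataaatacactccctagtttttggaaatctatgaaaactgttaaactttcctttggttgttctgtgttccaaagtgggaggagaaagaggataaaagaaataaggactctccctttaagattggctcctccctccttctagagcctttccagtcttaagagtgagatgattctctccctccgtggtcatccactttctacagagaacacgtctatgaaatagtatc

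The window of Cd5l held a PU.1 core at -67 and Maf half-sites at -54 and -46 from the start. That of Clec4f held a Maf half-site at -199 and a nuclear receptor half-site at -22, while none of the letters searched occurred in the window of Cd163. The table held 9 windows for 8 of the 9 members, with a pair for Nr1h3. The PU.1 core occurred in 4 of the 9 windows against 13.6% of all 32851 promoters, the Maf half-site in 4 against 19.5% and the nuclear receptor half-site in 2 against 16.3%. An E-box (CACGTG) occurred in 0 of the 9 against 7.15%. These are matches of letters and carry no measurement of binding.

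Macrophage genes were abundant in stroma at both sites. A panel of 10 (Ptprc, Adgre1, Csf1r, Cd68, Fcgr1, Mertk, C1qa, C1qb, C1qc and Lyz2) summed to between 6307 and 7215 CPM in liver stroma and between 4456 and 6911 CPM in peritoneal stroma. The mean log2(CPM + 0.1) of the panel was 8.85 ± 0.11 (SD, n = 4) in liver and 8.60 ± 0.32 in peritoneal stroma, and a two-sided exact permutation test on these 8 libraries (70 groupings) gave p = 0.2. None of the 10 was called between the sites, although Ptprc was 0.77 ± 0.09 (SE) log2 higher in liver stroma with an adjusted p of 2.01e-04.

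Some other cell types moved with the site. Genes of sinusoidal endothelium were higher in liver stroma for 3 of 5 tested (Clec4g, Stab2 and Oit3), genes of hepatocytes for 4 of 4 tested of 6 listed, and genes of fibroblasts were lower for 4 of 4. The hepatocyte list summed to between 19.9 and 186 CPM in liver stroma and between 0.432 and 1.06 CPM in peritoneal stroma, where Fga was at 0 in every library. The endothelial list of 5 genes summed to between 773 and 1242 CPM in liver and between 428 and 683 CPM in peritoneal stroma. In liver stroma the fibroblast list of 4 (Col1a1, Col3a1, Dcn and Pdgfrb) summed to between 2818 and 5919 CPM. In peritoneal stroma it summed to between 39307 and 56902 CPM. Of 4 mesothelial genes (Msln, Upk3b, Lrrn4 and Wt1), 1 was lower in liver stroma and 3 were not called. Their sums overlapped, at 69.0 to 142 CPM in liver and 93.8 to 122 CPM in peritoneal stroma. Over all genes tested, 3.36% were called higher in liver stroma and 9.98% lower. The hepatocyte genes were so low in peritoneal stroma that they passed the filter on low counts mainly through the liver libraries. So did Clec4g, with a mean of 0.179 CPM in peritoneal stroma. The hepatocyte and endothelial counts are therefore not read against the share of all genes. The part of these cell types in the results below was not tested.

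A pair of libraries stood apart. In liver stroma, mouse 2 had the highest hepatocyte sum (186 CPM, against 19.9 to 61.3 in the others) and the highest endothelial sum (1242 CPM, against 773 to 933). In peritoneal tumour cells, mouse 1 held the panel of macrophage genes at a median of 4.07% of its stromal level, against 0.219% to 0.667% in the other mice.

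Across liver and peritoneal stroma, 6 of the 9 members were called and 5 of these were higher in liver: Clec4f, Cd5l, Slc40a1, Spic and Timd4. Cd163 was lower in liver. All 9 passed the filter on low counts, but Clec4f and Spic passed through the liver libraries, because fewer than 4 peritoneal libraries reached its level. Of the 7 that passed at both sites, 4 were called. Over all 14755 genes tested 13.3% were called, 3.36% higher in liver and 9.98% lower. The libraries of the sites did not overlap for 8 of the 9 members, and did not overlap for 38.3% of the genes tested. Clec4f and Spic are among the 8 and the members were chosen with earlier results known, so this count is not read against that share. Among the members that passed at both sites, Id3 alone overlapped. The median log2 fold change was 2.07 over the 9 members, Clec4f and Spic included, and 0.02 over all genes. Scaling to library size alone shifted the median of all genes by 0.12.

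**Figure D1:**
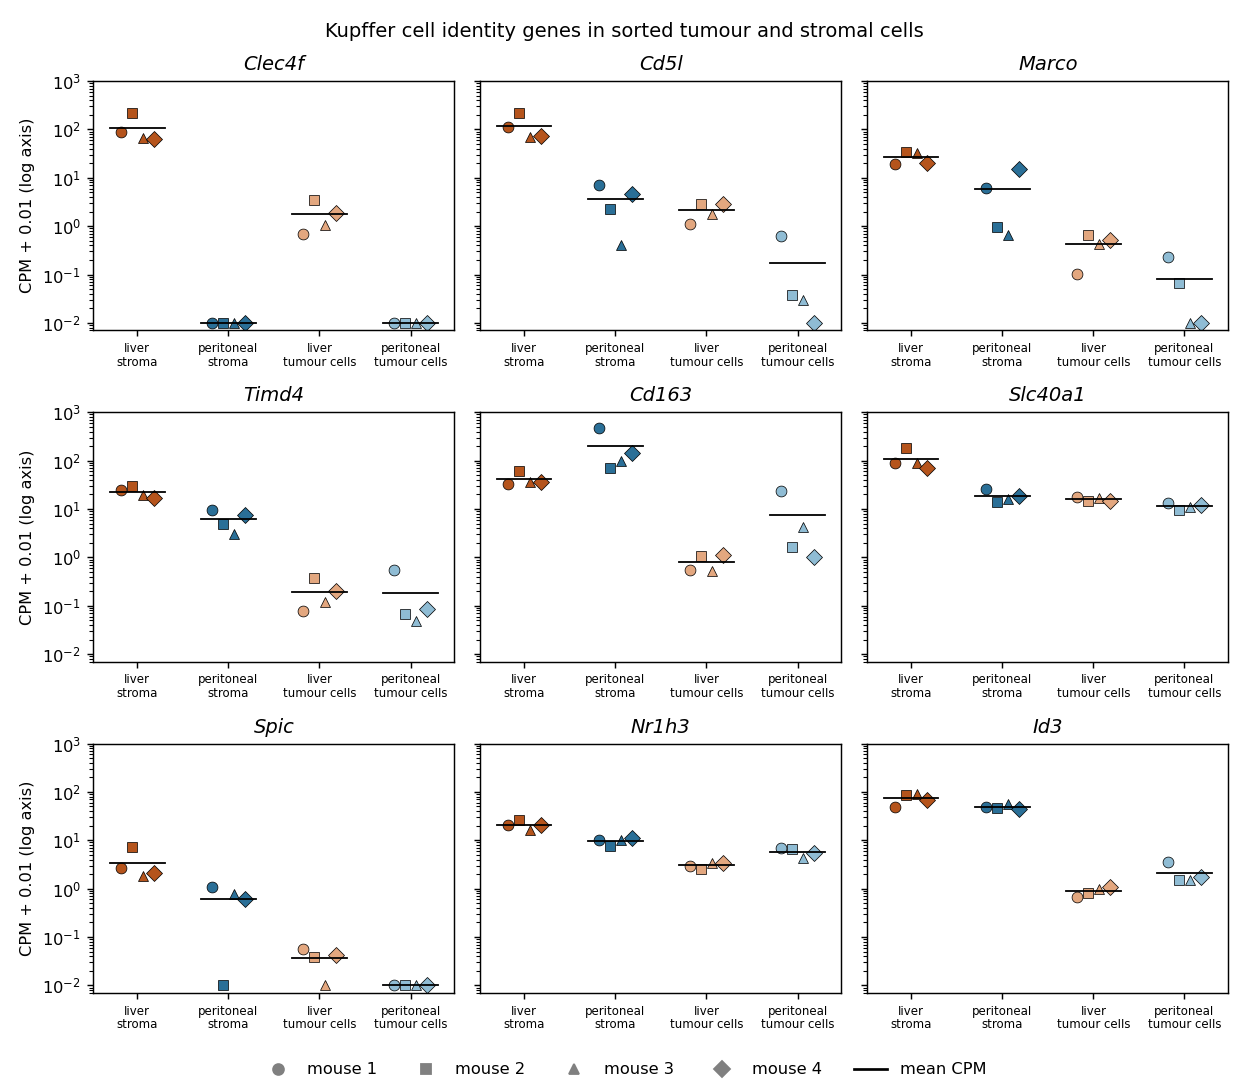
CPM + 0.01 (log axis) of each gene in the 4 groups of sorted cells, with 1 point per mouse and a bar at the mean CPM. Clec4f was at 0 in all 8 peritoneal libraries and between 63.3 and 215 CPM in liver stroma, whereas Cd163 was highest in peritoneal stroma.

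The first group of members are surface and secreted proteins by which Kupffer cells recognise their cargo. Clec4f (chr6:83594536-83606181 on mm9, minus strand) encodes a lectin that in mice is restricted to Kupffer cells. It stood at 88.7, 215, 66.5 and 63.3 CPM in the liver stroma of mice 1 to 4 (108 ± 71.8, SD). In peritoneal stroma it was at 0 in all 4 libraries. All 4 liver libraries therefore lay above all 4 peritoneal ones, and mouse 2 was the highest. Against the level of 3 counts in the shallowest peritoneal library, Clec4f was at least 835-fold higher in liver stroma (edgeR quasi-likelihood test, adjusted p = 9.21e-05), and the lowest liver library was at least 488-fold higher.

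Cd5l (chr3:87161803-87174996 on mm9, plus strand) encodes a secreted scavenger protein of tissue macrophages, also called AIM. It was at 112, 215, 71.0 and 73.1 CPM in liver stroma. In peritoneal stroma it was at 7.18, 2.25, 0.397 and 4.56 CPM. The lowest liver library was far above the highest peritoneal one, and the peritoneal libraries varied widely among themselves. The log2 fold change was 4.91 ± 0.67 (SE, adjusted p = 4.40e-04), and it was 4.48 without liver stroma of mouse 2.

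Marco (chr1:122371115-122401661 on mm9, minus strand) encodes a scavenger receptor that binds bacteria and particles. Liver stroma held 19.3, 34.7, 32.7 and 19.9 CPM. Peritoneal stroma held 6.11, 0.951, 0.642 and 15.5 CPM, a spread of more than an order of magnitude. The sites did not overlap, but peritoneal mouse 4 came close to the lowest liver libraries. The log2 fold change of 2.07 ± 0.77 was not called (adjusted p = 0.0655), while without peritoneal mouse 4 it was 3.24 with an adjusted p of 0.00666 and was called. It was also called with the lane as a covariate (2.62, adjusted p = 0.0374), with library sizes alone (2.19, adjusted p = 0.0493), with all 16 libraries in the fit (2.14, adjusted p = 0.0334) and with unadjusted p-values.

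Timd4 (chr11:46624302-46657834 on mm9, plus strand) encodes a phosphatidylserine receptor for apoptotic cells that resident macrophages of both liver and peritoneum use. Liver stroma held 24.8, 29.2, 19.5 and 17.2 CPM. Peritoneal stroma held 9.38, 4.89, 2.995 and 7.68 CPM. Timd4 was thus present at both sites without overlap, with a log2 fold change of 1.75 ± 0.31 (adjusted p = 0.00218). Genes of large peritoneal macrophages were not called for 6 of 7 tested, and Prg4 was lower in liver stroma (log2 fold change -1.31 ± 0.41, adjusted p = 0.0346).

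A second group of members handles haem and iron. Cd163 (chr6:124254669-124280545 on mm9, plus strand) encodes the receptor for haemoglobin bound to haptoglobin. It was at 33.7, 62.3, 36.2 and 35.7 CPM in liver stroma. In peritoneal stroma it was at 479, 70.9, 99.3 and 146 CPM. Peritoneal mouse 1 was by far the highest, yet every peritoneal library exceeded every liver library. The log2 fold change was -2.36 ± 0.55 (adjusted p = 0.00866), and over 17 alternative settings it ranged from -2.65 to -1.48 and was called in each.

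Slc40a1 (chr1:45964915-45982439 on mm9, minus strand) encodes ferroportin, the iron exporter. Liver stroma held 87.5, 179, 89.7 and 70.4 CPM. Peritoneal stroma held 25.4, 13.7, 16.2 and 19.0 CPM. The sites did not overlap, and the log2 fold change was 2.40 ± 0.29 (adjusted p = 2.14e-04).

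Spic (chr10:88137517-88147760 on mm9, minus strand) encodes a haem-induced transcription factor of iron-recycling macrophages. It was low everywhere, at 2.63, 7.19, 1.81 and 2.07 CPM in liver stroma. In peritoneal stroma it was at 1.07, 0, 0.764 and 0.596 CPM. The sites did not overlap and the gene was called, with a log2 fold change of 2.32 ± 0.72 (adjusted p = 0.0314). This call was lost with the mouse as a block (adjusted p = 0.0954), with the sequencing lane as a covariate (0.0647), without liver stroma of mouse 2 (log2 fold change 1.71, adjusted p = 0.0961), without peritoneal mouse 3 (adjusted p = 0.0593) and without peritoneal mouse 4 (adjusted p = 0.0665).

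The other haem and iron genes on a list of 10 (Hmox1, Blvrb, Fth1, Ftl1, Slc11a1, Slc48a1, Tfrc, Bach1, Hamp and Hp) were not called in either direction for 9 of 9 tested. Their median log2 fold change was 0.25. Hmox1, the enzyme that opens the haem ring, had a log2 fold change of 0.15 ± 0.23 (adjusted p = 0.665). Slc11a1, an iron transporter of phagosomes, was at 0.70 ± 0.14 with an adjusted p of 0.00443, under the fold limit.

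The third group are regulators of transcription. Nr1h3 (chr2:91024218-91042991 on mm9, minus strand) encodes LXRα, which Kupffer cells need to keep their identity. Liver stroma held 20.5, 26.6, 16.03 and 20.6 CPM. Peritoneal stroma held 10.3, 7.78, 10.2 and 11.2 CPM. The sites did not overlap, but the log2 fold change of 0.96 ± 0.16 (adjusted p = 0.00154) was under the fold limit, and it lay between 0.85 and 1.08 over 17 alternatives. It passed the limit with library sizes alone (1.08), with all 16 libraries in the fit (1.03), without liver stroma of mouse 3 (1.06) and without peritoneal stroma of mouse 4 (1.01). Partners and targets of LXR were not called for 10 of 10 tested, with a median log2 fold change of -0.02. Smpdl3a, an LXR target, was at 0.79 ± 0.13 (adjusted p = 0.00161), and the cholesterol exporter Abca1 was at -0.31 ± 0.26 (adjusted p = 0.385).

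Id3 (chr4:135699412-135701670 on mm9, plus strand) encodes an inhibitor of helix-loop-helix factors that Kupffer cells need to develop. It was at 47.9, 85.6, 92.4 and 67.0 CPM in liver stroma. In peritoneal stroma it was at 49.2, 46.8, 57.4 and 43.3 CPM. It was the member whose sites overlapped, and its log2 fold change of 0.45 ± 0.18 was not called (adjusted p = 0.0878). Among 6 listed relatives and Bmp response genes, Smad6 was higher in liver stroma (1.63 ± 0.19, adjusted p = 1.61e-04) and 5 were not called. Id1 was at 0.95 ± 0.16 with an adjusted p of 0.00160.

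Signals of the Kupffer niche were tested for 6 of 8 listed. Bmp2 was higher in liver stroma (1.86 ± 0.44, adjusted p = 0.00966). The other 5 tested were not called: the Notch ligand Dll4 was at 0.55 ± 0.19 (adjusted p = 0.0475) and the macrophage growth factor Csf1 at -0.73 ± 0.20 (adjusted p = 0.0212). Gdf2 and Bmp10 were not tested because of low counts.

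A further 11 genes known from Kupffer cells split. Of 10 tested, 3 were higher in liver stroma: Clec1b (log2 fold change 4.57 ± 0.33, adjusted p = 1.04e-05), the complement receptor Vsig4 (3.66 ± 0.62, adjusted p = 0.00166) and the interleukin-18 inhibitor Il18bp (1.06 ± 0.23, adjusted p = 0.00616). Gfra2 was lower (-1.37 ± 0.31, adjusted p = 0.00700). The other 6 were not called, among them the complement factor C6 (0.42 ± 0.34, adjusted p = 0.385) and the folate receptor Folr2 (-1.52 ± 0.56, adjusted p = 0.0633). Sucnr1 was at 0 in all 16 sorted libraries. Among 4 genes of recruited monocytes, F13a1 was lower in liver stroma (-2.03 ± 0.42, adjusted p = 0.00492) and Ly6c2, Ccr2 and Chil3 were not called. The median over the 10 further Kupffer cell genes was 0.34, below the 2.07 of the members.

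**Figure D2:**
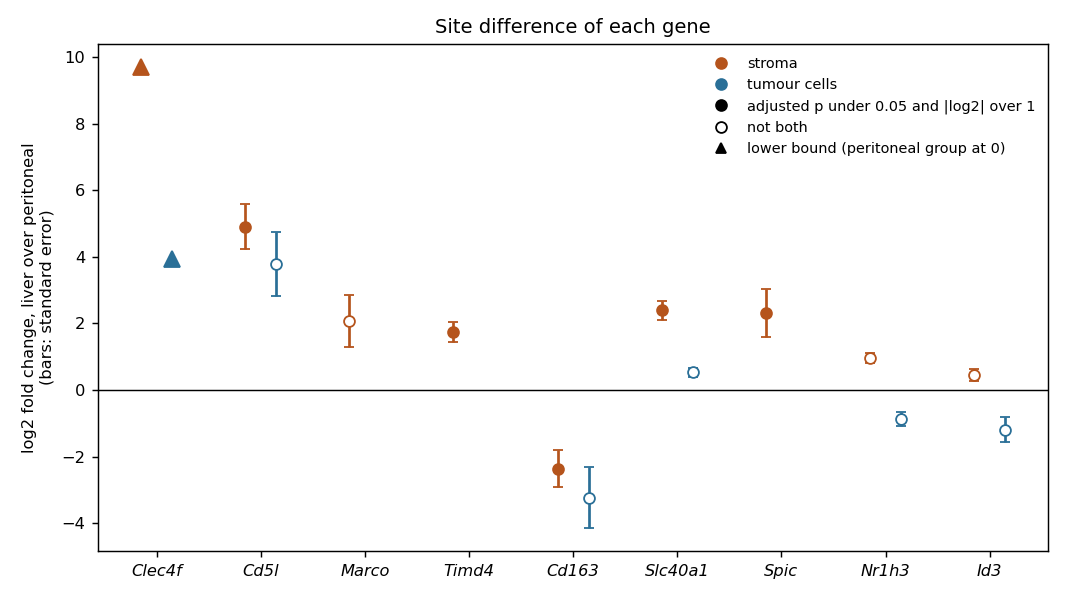
Log2 fold change of liver over peritoneal libraries for each gene, with its standard error, in stroma and in tumour cells. Triangles are lower bounds for Clec4f, which was at 0 in both peritoneal groups. Cd163 lay below 0 in both compartments, and Nr1h3 and Id3 lay above 0 in stroma and below 0 in tumour cells.

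Per kilobase of exon (GENCODE on mm9), the members ordered themselves differently at the 2 sites. In liver stroma the mean levels were 57.9 CPM per kb for Cd5l, 43.8 for Clec4f, 40.9 for Id3 and 31.5 for Slc40a1, and the libraries of these 4 overlapped. Marco (13.4), Timd4 (10.4), Cd163 (9.35) and Nr1h3 (8.32) formed a lower band that overlapped within itself and not with the first, and Spic (0.892) lay beneath. In peritoneal stroma Cd163 had the highest mean with 44.3 CPM per kb and Id3 was at 27.5, but their libraries overlapped (15.8 to 107 for Cd163 and 24.2 to 32.04 for Id3). Without peritoneal mouse 1 the order turned, with 23.5 CPM per kb for Cd163 and 27.5 for Id3. Slc40a1 was at 5.49, Nr1h3 at 3.92, Marco at 2.92, Timd4 at 2.87, Cd5l at 1.77 and Spic at 0.158 CPM per kb.

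The levels were next expressed relative to the macrophage panel, as log2(CPM + 0.1) of a member minus the mean over the 10 genes. This asks whether a member differed from macrophage RNA as a whole. Clec4f was at -2.29 ± 0.84 (SD) in liver stroma and at -11.92 ± 0.32 in peritoneal stroma, where the lower value is set by the pseudocount. Cd5l was at -2.13 ± 0.77 against -7.28 ± 1.59. Cd163 was at -3.51 ± 0.47 against -1.38 ± 0.97, the opposite order.

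In this measure 8 of the 9 members reached p = 0.0286 in the two-sided exact permutation test, the smallest value that 70 groupings can give, which is reached when the libraries of the sites do not overlap. Over the 14755 genes tested, 21.4% did not overlap in this measure. Clec4f and Spic are among the 8 members and passed the filter on low counts through the liver libraries. The count is therefore not read against this share. The differences, liver minus peritoneal, were 2.88 for Marco, 1.69 for Timd4, 2.21 for Slc40a1, 2.30 for Spic, 0.81 for Nr1h3 and -2.13 for Cd163. For Spic the value of peritoneal mouse 2, at 0 counts, is set by the pseudocount. Without that library the difference for Spic was 1.66 (exact permutation p = 0.0571). Without liver stroma of mouse 2 the difference for Spic was 1.85 (exact permutation p = 0.0571). For Marco, leaving out any of the 4 liver libraries gave 2.71 to 3.05 (exact permutation p = 0.0571 in each case). For Nr1h3, leaving out any of the 4 peritoneal libraries gave 0.75 to 0.85 (exact permutation p = 0.0571 in each case). The libraries of the sites still did not overlap in these cases. Id3 differed by 0.28 (exact permutation p = 0.314). With libraries exchanged only within mice, 4 pairs cannot give a p under 0.05, so no member could pass that test.

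**Figure D3:**
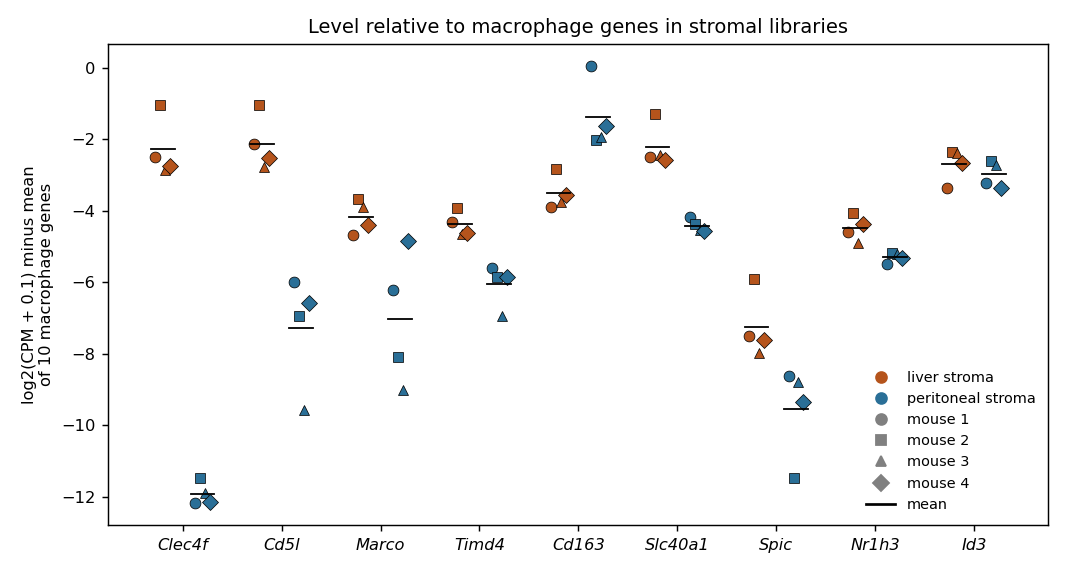
Log2(CPM + 0.1) of each gene minus the mean of 10 macrophage genes in the 8 stromal libraries, with 1 point per mouse and a bar at the mean. Cd163 was higher in peritoneal stroma, Id3 overlapped between the sites, and the other 7 genes were higher in liver stroma.

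Within mice, Clec4f, Cd5l, Marco, Timd4, Slc40a1, Nr1h3 and Spic were each higher in liver than in peritoneal stroma in 4 of 4 mice, and Cd163 was lower in 4 of 4. These directions follow from the sites not overlapping, so they are not a further result. The sizes varied between mice. The difference in log2(CPM + 0.1) ran from 3.95 to 7.16 for Cd5l, from 0.36 to 5.47 for Marco and from 1.15 to 2.66 for Timd4. For Cd163 it ran from -3.83 in mouse 1 to -0.19 in mouse 2. Both stromal libraries of mice 1, 3 and 4 were sequenced on the same lane, so that the differences of these mice are also differences within a lane.

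Sorted tumour cells held little of most members. Clec4f was at 0.690, 3.43, 1.04 and 1.83 CPM in the liver tumour cells of mice 1 to 4. It was at 0 in all 4 libraries of peritoneal tumour cells. Mouse 2 was the highest in both stroma and tumour cells. By its mean, Clec4f was at least 15.5-fold higher in liver tumour cells than the level of 3 counts in the shallowest peritoneal library (edgeR adjusted p = 0.0121). The lowest liver library was at least 6.09-fold higher. With the lane as a covariate the adjusted p was 0.0526 and the call was lost.

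Clec4f was the 1 member called of 6 tested between the sites in tumour cells, where 1.15% of 13074 genes were called. Timd4, Marco and Spic did not pass the filter on low counts, and Clec4f and Cd5l passed it through the liver libraries, so the share of called members is not read against the background. Timd4 was at 0.069 to 0.366 CPM in liver and 0.039 to 0.542 CPM in peritoneal tumour cells, which overlapped. Marco was at 0.092 to 0.648 CPM in liver and 0 to 0.223 CPM in peritoneal tumour cells. Spic did not exceed 0.046 CPM in either, which is under 3 counts.

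Cd5l was at 1.10, 2.93, 1.79 and 2.83 CPM in liver tumour cells. In peritoneal tumour cells it was at 0.605, 0.028, 0.020 and 0 CPM. The sites did not overlap, and peritoneal mouse 1 was the highest of its group. The log2 fold change of 3.79 ± 0.96 was not called (adjusted p = 0.0612), and without peritoneal mouse 1 it was 6.74 with an adjusted p of 5.78e-04 and was called. Without this library Marco was also tested and called (4.35, adjusted p = 0.0295), and 3 members were called in all.

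Cd163 was at 0.552, 1.04, 0.505 and 1.10 CPM in liver tumour cells. In peritoneal tumour cells it was at 23.5, 1.67, 4.22 and 1.02 CPM. The sites overlapped, since peritoneal mouse 4 was below 2 of the liver libraries. The log2 fold change was -3.23 ± 0.91 (adjusted p = 0.0824), and -1.51 without peritoneal mouse 1 (adjusted p = 0.0820).

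Nr1h3 and Id3 had the opposite order to stroma. Nr1h3 was at 2.99, 2.53, 3.31 and 3.35 CPM in liver tumour cells. It was at 6.92, 6.56, 4.37 and 5.36 CPM in peritoneal tumour cells. All liver libraries were lower, and the log2 fold change of -0.88 ± 0.21 (adjusted p = 0.0484) was under the fold limit. Id3 was at 0.667 to 1.10 CPM in liver and 1.48 to 3.60 CPM in peritoneal tumour cells, again without overlap. Its log2 fold change of -1.19 ± 0.37 was not called (adjusted p = 0.110), and it was -0.77 without peritoneal mouse 1. Slc40a1 was at 14.4 to 18.004 CPM in liver and 9.39 to 13.03 CPM in the peritoneal ones, and its log2 fold change was 0.54 ± 0.13 (adjusted p = 0.0577).

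Whether the site difference itself differed between stroma and tumour cells was tested in all 16 libraries. It differed for Slc40a1, by 1.93 ± 0.34 log2 (adjusted p = 0.00141), for Nr1h3, by 1.91 ± 0.25 (adjusted p = 1.58e-04), and for Id3, by 1.71 ± 0.40 (adjusted p = 0.00892). In each the difference of liver over peritoneal was higher in stroma than in tumour cells. These were 3 of the 9 members in the fit, of which Clec4f and Spic gave no estimate, while 6.46% of 15331 genes were called. Timd4, Marco and Spic passed the filter on low counts through the stroma, so the count is not read against this share. The term was not called for Cd5l (1.12 ± 1.41, adjusted p = 0.653), Cd163 (0.94 ± 1.19, adjusted p = 0.640), Timd4 (1.65 ± 0.93, adjusted p = 0.259) or Marco (-0.51 ± 1.75, adjusted p = 0.862). For Clec4f and Spic no estimate was possible, because a group was at 0. Without peritoneal tumour cells of mouse 1 the called terms were 1.76 for Slc40a1, 1.72 for Nr1h3 and 1.22 for Id3, and each was still called. The others were -1.78 for Cd5l, -0.78 for Cd163, 0.0050 for Timd4 (adjusted p = 0.990) and -2.22 for Marco, and none was called.

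Against tumour cells of the same site, stroma held more of every member in liver. All 9 were called higher, with log2 fold changes from 2.79 ± 0.24 for Slc40a1 and 2.85 ± 0.17 for Nr1h3 to 7.02 ± 0.33 for Timd4, while 43.9% of 14620 genes were called and 27.5% were called higher. Timd4, Marco and Spic passed the filter on low counts through the stroma, where they are high, so the count is not read against this share. In the peritoneum 5 of 7 tested were called higher: Marco (6.52 ± 1.44), Timd4 (5.28 ± 0.79), Cd163 (4.81 ± 1.14), Id3 (4.68 ± 0.31) and Cd5l (4.604 ± 1.24). There 43.6% of 14584 genes were called, 27.4% higher, and Marco, Timd4 and Cd5l again passed through the stroma. Slc40a1 (0.81 ± 0.20, adjusted p = 0.00545) and Nr1h3 (0.88 ± 0.19, adjusted p = 0.00234) were under the fold limit, and Clec4f and Spic were not tested. Without peritoneal tumour cells of mouse 1 the log2 fold changes were 8.24 for Marco, 7.56 for Cd5l, 6.95 for Timd4 and 6.54 for Cd163, and Nr1h3 was called at 1.07 (adjusted p = 8.01e-04). Nr1h3 was also called with DESeq2 (1.01, adjusted p = 6.67e-06) and with RLE scaling (1.02, adjusted p = 0.00131).

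The level of each member in tumour cells was then set against its level in stroma of the same tumour. In liver, group means of Nr1h3 and Slc40a1 in tumour cells were 14.6% and 15.1% of those in stroma. The other 7 members were at 0.776% to 1.90%. The macrophage panel was at 0.228% to 6.24% with a median of 0.470%, and its 2 highest genes were Cd68 and Mertk. In each of the 4 mice Clec4f, Cd5l, Marco, Timd4, Id3 and Cd163 were above the panel's median and below its highest gene, and Nr1h3 and Slc40a1 were above its highest gene.

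For Clec4f the share was 0.777%, 1.60%, 1.56% and 2.90% in mice 1 to 4. The panel's median in the same mice was 0.254%, 0.518%, 0.464% and 0.758%. Mouse 4 was the highest and mouse 1 the lowest in both. In the peritoneum Clec4f was left out because all stroma was at 0, and Spic because stroma of mouse 2 was at 0. Spic was also at 0 in all peritoneal tumour cells. The 7 members with counts in every peritoneal stromal library were at 1.20% to 61.7% and the panel at 0.792% to 7.44%. Without mouse 1 the members were at 0.331% to 67.1% and the panel at 0.235% to 6.64%, with Marco lowest among the members and Ptprc in the panel. Cd5l moved from 4.54% to 0.663% and Timd4 from 2.86% to 1.10%. Slc40a1 and Nr1h3 were again above the panel's highest gene in each mouse.

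**Figure D4:**
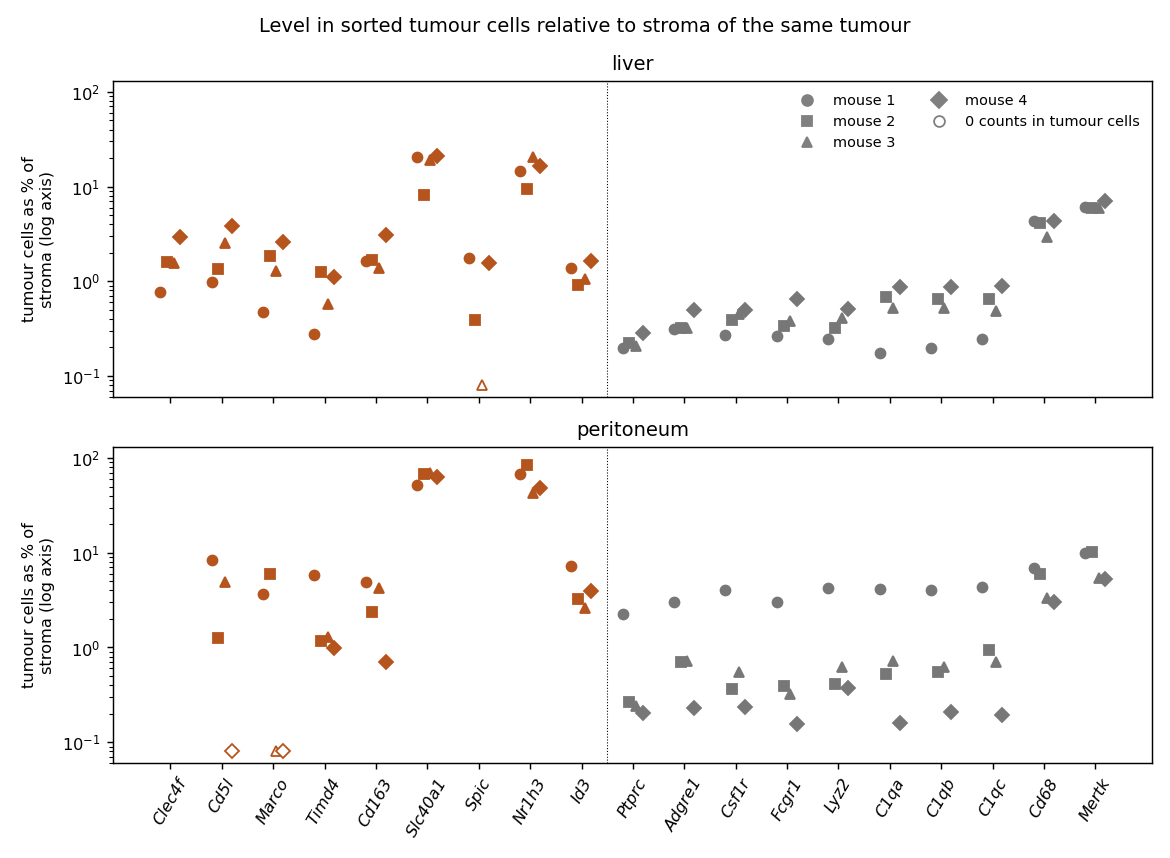
CPM in sorted tumour cells as a percentage of CPM in stroma of the same tumour (log axis), for the members at left and 10 macrophage genes at right, with 1 point per mouse and open points where tumour cells had 0 counts. Slc40a1 and Nr1h3 stood above the other genes at both sites, and peritoneal mouse 1 stood above the other mice for 9 of the 10 macrophage genes, Mertk being the exception.

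Cultured BMEL cells gave the background for the tumour cells without host cells. Clec4f, Timd4, Cd5l and Spic were at 0 in all 9 cultures, and Marco and Cd163 were at 4 counts or fewer. Slc40a1 was at 17.3 ± 5.09 CPM in BMEL WT (SD, n = 3), 11.3 ± 1.97 in RasLOW and 12.4 ± 3.04 in RasHIGH, and these means lay on either side of the 16.1 CPM of liver and 11.4 CPM of peritoneal tumour cells. Nr1h3 was at 5.99 ± 1.57, 4.91 ± 1.63 and 5.11 ± 0.45 CPM. Id3 was at 26.7 ± 11.9, 14.6 ± 9.602 and 8.64 ± 6.25 CPM, and its cultures overlapped between neighbouring groups.

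None of the 3 members tested was called between cultures by edgeR, against 4.42% of genes for RasLOW and 14.2% for RasHIGH over BMEL WT and 0.0752% for RasHIGH over RasLOW. Slc40a1 in RasLOW (log2 fold change -0.60 ± 0.24, unadjusted p = 0.0408, adjusted p = 0.206) and Id3 in RasHIGH (-1.63 ± 0.63, unadjusted p = 0.0346, adjusted p = 0.111) were under 0.05 before adjustment. DESeq2 called Id3 in RasHIGH (-1.61, adjusted p = 0.0207) and no other member.

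By mean CPM over all 7 groups, liver stroma was highest for 8 members and peritoneal stroma for Cd163. For each member but Id3 the highest group did not overlap the next, which was so for 24.1% of 15331 genes. Clec4f was at 0 in both peritoneal groups and in the cultures. Timd4, Marco and Spic passed the filter on low counts through the stroma, where they are high. The count of members is therefore not read against this share. For Id3 liver and peritoneal stroma overlapped, and both were above BMEL WT cultures, which were followed by RasLOW and RasHIGH with overlap. By mean, liver tumour cells held the least Id3 and Nr1h3 of all groups, with no overlap with the next group for Id3 and overlap with RasLOW cultures for Nr1h3.

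The genes whose pattern was most like Clec4f were found by Pearson's r of log2(CPM + 1) over the 16 sorted libraries, among 13264 genes with a mean of at least 1 CPM. They were Oit3 (0.987), Clec4g (0.984), Stab2 (0.977), Igfbp1 (0.968) and Fgb (0.961), of which the first 3 are on the list of sinusoidal endothelium. The nearest members were Slc40a1 at rank 9 (0.947) and Cd5l at rank 13 (0.944). Over the 8 stromal libraries alone the nearest genes were Fgb (0.998), Oit3 (0.997), Clec1b (0.996), Gata4 (0.995) and Nedd9 (0.995), and Cd163 had an r of -0.73. The libraries share the site contrast and the high library of mouse 2, so these values describe likeness only.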

How the data were processed

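RNA was measured by sequencing in 25 libraries. The authors aligned reads to mm9 with TopHat2, per the methods of the study, and deposited raw counts per gene. The submitters' processing notes instead name Bowtie 0.12.2 and the builds mm8 and mm10. The counting program, strand setting and annotation are not given in the sources used here.

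Tests used edgeR 4.0.16 under R 4.3.3: filterByExpr (minimum count 10), TMM, the quasi-likelihood F-test on the 2 groups of a comparison, and Benjamini-Hochberg adjustment over all genes tested. Relative levels used log2(CPM + 0.1) and an exact permutation test. The steps were tested on simulated data.

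All 4 libraries of a mouse are tied by the labels. Deviations of matched libraries had a mean correlation of 0.182 in stroma and -0.0464 in tumour cells. The mouse was used as a block in an alternative. The study's methods call the samples of each cell line biologically independent, without saying how the cultures were kept apart. Their p-values measure the spread between these samples.

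All 9 members are named, with genes of 12 lists and the 5 genes most like Clec4f. The members and lists were chosen with earlier results of these data known. Alternatives were DESeq2 1.42.0, RLE, library size only, no filter, the thresholds of the study with unadjusted p, no fold limit, all 16 sorted libraries together, lane, block and each library left out.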

Additional observations from a re-analysis of the deposited data

Results flagged for a closer look

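Dixon's ratio was used to look for a library far from the others of its group. Its usual critical value passes about 1 in 20 by chance where values are independent and normally spread. The combinations here share libraries and some values lie near the floor, so the number passing is not read against that rate. Of 32 gene and group combinations of 4 libraries, 7 passed. In liver stroma these were Clec4f (ratio 0.832, 215 CPM), Spic (0.849, 7.19 CPM) and Cd163 (0.910, 62.3 CPM), each with mouse 2 as the high library. In peritoneal tumour cells they were Timd4 (0.927, 0.542 CPM), Cd5l (0.953, 0.605 CPM), Id3 (0.898, 3.60 CPM) and Cd163 (0.858, 23.5 CPM), each with mouse 1 as the high library.

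The site difference differed between stroma and tumour cells by the interaction term for Slc40a1 (1.93 log2), Nr1h3 (1.91) and Id3 (1.71). Without peritoneal tumour cells of mouse 1 the term for Id3 was 1.22 (adjusted p = 0.0146, edgeR).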

How the results depend on the processing

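In stroma, Clec4f, Cd5l, Slc40a1, Timd4 and Cd163 were called in each of 17 alternatives, and the number of members called stayed within 1.5 times 6. Without a fold limit 4925 genes were called in place of 1968.

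In tumour cells the count of members rose from 1 to 4 with the thresholds of the study or with DESeq2, to 2 with no fold limit or no filter, and to 3 with all 16 libraries, and fell to 0 with the lane as a covariate. Leaving out each library gave 1 to 3 members. Over all genes 150 calls became 460 with the thresholds of the study, 419 with no fold limit, 365 with DESeq2, 311 with all 16 libraries and 97 with lane, and 23 (without liver mouse 2) to 278 (without peritoneal mouse 1) when each library was left out.

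With the mouse as a replicate block, 50 genes were called in tumour cells and Clec4f kept its call (adjusted p = 0.0458, edgeR; 5.94e-10 to 0.0526 over all alternatives). In stroma the block ended the call of Spic and changed no other. Exchanging labels within mice left 0 of the 8 relative levels under 0.05, which 4 pairs cannot reach. The culture numbers share only a number: blocking on them left 0 members called in each comparison. DESeq2 called 1 member in RasHIGH over BMEL WT.

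Interaction terms that were not called changed sign for Marco to 0.049 with the block. With each library left out they ran from -2.22 to 0.60 for Marco (0.057 without peritoneal tumour cells of mouse 3 and 0.60 without peritoneal stroma of mouse 4), from -1.78 to 1.64 for Cd5l and from -0.78 to 1.79 for Cd163, both negative without peritoneal tumour cells of mouse 1. The term for Timd4 was 0.0050 without that library in place of 1.65. Leaving out mouse 1 from the peritoneal shares and from the levels per kilobase was chosen after seeing the data. The cause was not tested. Spic in tumour cells was under the depth at which a difference could be seen.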
